A study of Mus musculus with 13 samples.

Results

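Expression was described for 9 genes by which natural killer T (NKT) cells are recognised: Zbtb16, which encodes the transcription factor PLZF, Tbx21, Il2rb, Cxcr6, Slamf6, Sh2d1a, Klrb1c, Il17rb and Xcl1. They were taken by name, and each was read from the probe set annotated to that gene symbol alone, the one with the highest mean where a gene had several. All 9 genes were measured, each by 1 probe set, among 18818 genes on the array. RNA came from epididymal white fat of male mice aged 6.5 weeks, and all groups had eaten a high-fat diet for 4 days. The glycolipid α-galactosylceramide (αGalCer, 100 ng per g body weight) or its vehicle, pyridine, was injected into the peritoneum on days 0 and 2, and fat was collected on day 4. Wild type C57/BL6 mice gave 3 arrays after vehicle and 4 after αGalCer. CD1d-/- mice of the line B6.129S6-Cd1d1/Cd1d2tm1spb/J, with a background labelled C57Bl/6J, gave 3 arrays after each injection and are called knockout below. CD1d is deleted in the germline of this line, so it is missing in every cell type and throughout life.

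NKT cells are T lymphocytes with a restricted receptor that binds lipids held by CD1d, and αGalCer on CD1d is their classical strong stimulus. PLZF directs their innate-like development, T-bet (the product of Tbx21) together with the interleukin 15 receptor chain encoded by Il2rb sustains the interferon-producing subset, and Slamf6 with its adaptor SAP (encoded by Sh2d1a) is needed for their selection in the thymus. Most of these genes are not restricted to NKT cells. Natural killer (NK) cells and activated T cells also use Tbx21, Il2rb, Cxcr6, Sh2d1a and Xcl1, and in several tissues Zbtb16 is induced by glucocorticoids.

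The targeted gene was read first. On the log2 scale used for all levels here, Cd1d1 averaged 10.69 ± 0.15 (SD, n = 3) in the vehicle group of wild type mice. Its mean in the vehicle group of knockout mice was 3.73 ± 0.29 (SD, n = 3). The knockout mean was lower by 6.96 ± 0.26 (SE; limma, adjusted p = 3.35e-08), and no knockout array approached a wild type array. Whether the probe set was above background in knockout fat was not tested, so no fold is given. Adipocyte genes averaged between 11.56 and 11.75 in the 9 arrays outside the wild type αGalCer group. Genes of skeletal muscle, whose mean was 4.97 to 5.81 in wild type arrays, were high in 3 knockout arrays, at 8.22 and 6.67 in vehicle replicates 1 and 2 and at 8.57 in αGalCer replicate 3. Genes of the epididymis were highest in wild type vehicle replicate 3, where their mean was 5.38, against 4.00 to 4.34 in the groups other than wild type vehicle. In wild type after αGalCer, 1 of 15 muscle genes and 1 of 16 epididymis genes were called, Myl1 (-1.33 ± 0.38, adjusted p = 0.0127) and Lcn8 (-0.35 ± 0.10, adjusted p = 0.0111, and 0.0582 without vehicle replicate 1).

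After αGalCer, 7 of the 9 NKT identity genes rose in wild type fat and 2 fell, the falling ones being Zbtb16 and Il17rb. Across the whole array 19.8% of genes were called higher and 22% lower in this comparison (adjusted p under 0.05). The median change of the 9 genes was 2.50 on the log2 scale, and that of all genes was -0.02. Every one of the 9 had wild type groups that did not overlap, a property shared by 46.7% of all genes. In knockout fat none of the 9 was called, and 0 of them had an unadjusted p under 0.05. There 0% of all genes were called and 1281 had such a p. With arrays weighted by their quality 322 genes were called in knockout fat, none of the 9 among them. In bulk tissue, changes in cell number, in RNA per cell and in the share of RNA from other cells cannot be told apart. This applies to every change given here.

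**Figure D1:**
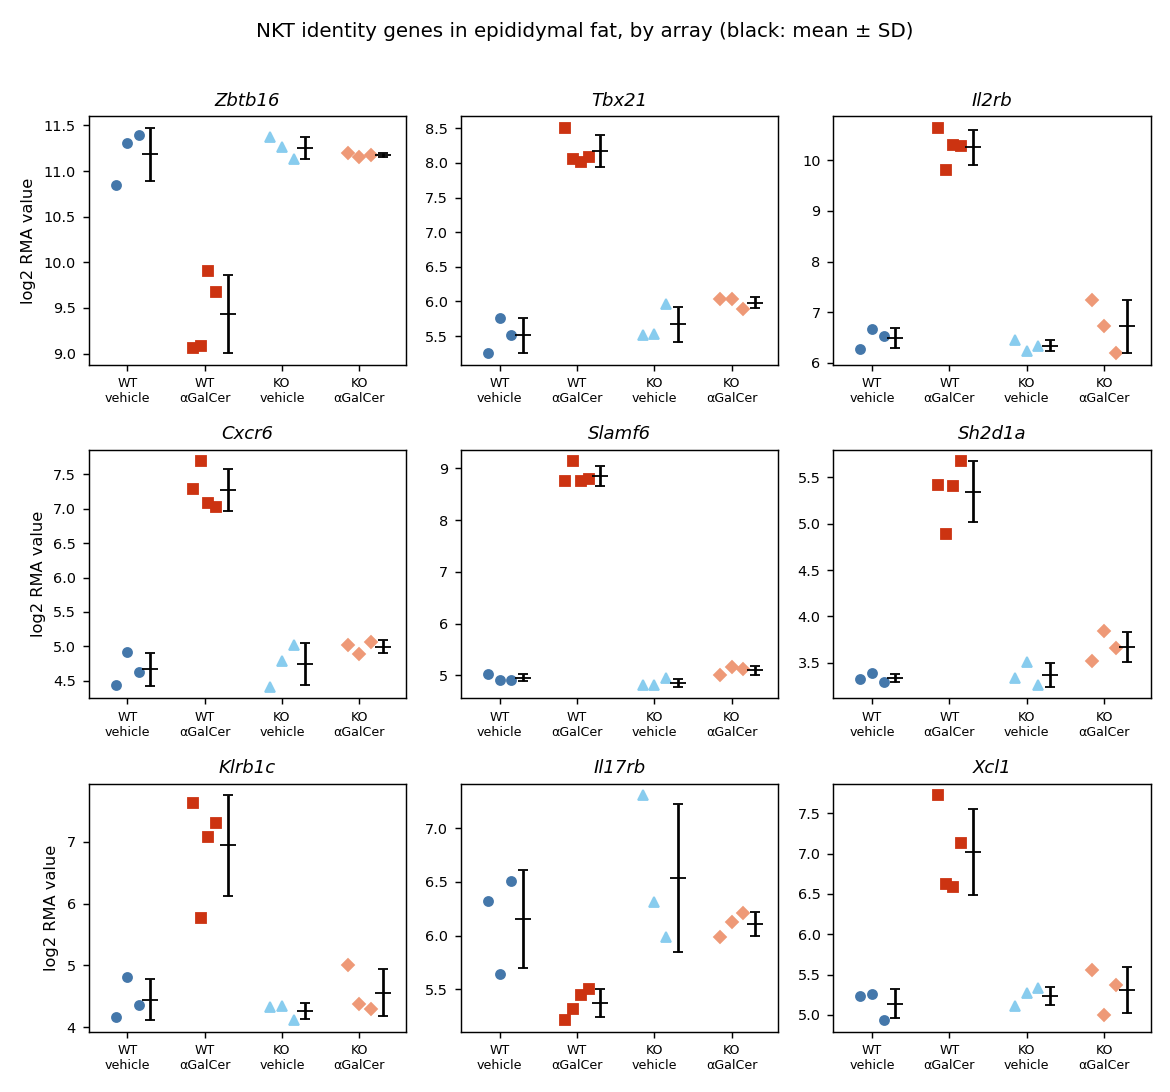
Log2 RMA values of the 9 NKT identity genes on each array (vertical axes, 1 panel a gene) in the 4 groups (horizontal axes), with the group mean and SD in black. Wild type αGalCer arrays stand above all others for 7 genes and below them for Zbtb16 (9.06 to 9.91) and Il17rb (5.21 to 5.50).

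Zbtb16 had the larger of the 2 falls among the NKT identity genes. In wild type fat it read 10.85, 11.31 and 11.39 after vehicle, and 9.06, 9.08, 9.91 and 9.67 after αGalCer. Knockout fat gave 11.37, 11.26 and 11.13 after vehicle, and 11.20, 11.15 and 11.18 after αGalCer. The wild type αGalCer arrays were thus the lowest of the 13, while the 9 others lay together. The fall was 1.76 ± 0.19 (SE) on the log2 scale, or 3.38-fold, with an adjusted p of 8.23e-06. In knockout fat the difference between injections was -0.08, with a 95% interval of -0.52 to 0.37. The effect in wild type minus that in knockout was -1.68 ± 0.28 (adjusted p = 0.000624). Ordered by mean, the groups ran from 11.25 ± 0.12 (SD, n = 3) in knockout after vehicle through 11.18 ± 0.29 (n = 3) in wild type after vehicle and 11.18 ± 0.03 (n = 3) in knockout after αGalCer to 9.43 ± 0.43 (n = 4) in wild type after αGalCer. The 3 highest means lay within 1 SD of the knockout vehicle group. After vehicle, Zbtb16 in fat of knockout mice, which lack CD1d-restricted NKT cells, differed from that in wild type fat by 0.07, with an interval of -0.38 to 0.52.

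Genes of other cells moved with Zbtb16. All 19 measured adipocyte genes fell in wild type fat after αGalCer, with a median of -1.28, and their mean level went from 11.56 to 11.67 after vehicle to 9.84 to 10.52. Pck1, which supplies glycerol for fat storage, fell by 3.04 ± 0.29, and Slc2a4, the insulin-responsive glucose transporter, by 2.66 ± 0.23. Of 14 fibroblast genes 9 fell, led by the matrix genes Lum (-2.04 ± 0.24) and Col15a1 (-1.91 ± 0.13), and 1, the adhesion gene Icam1, rose (1.86 ± 0.17). The levels of this list ran from 9.28 to 9.70 after vehicle and from 8.69 to 9.15 after αGalCer. The part of adipocyte content in the Zbtb16 result was not tested. Among the 4 wild type αGalCer arrays, replicate 3 had the highest Zbtb16 and the highest adipocyte mean (10.52). Replicates 1 and 2 had nearly equal Zbtb16 (9.06 and 9.08), with adipocyte means of 10.32 and 9.84, the latter the lowest of the 4. Replicate 4, with a Zbtb16 of 9.67, had an adipocyte mean of 10.23.

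**Figure D2:**
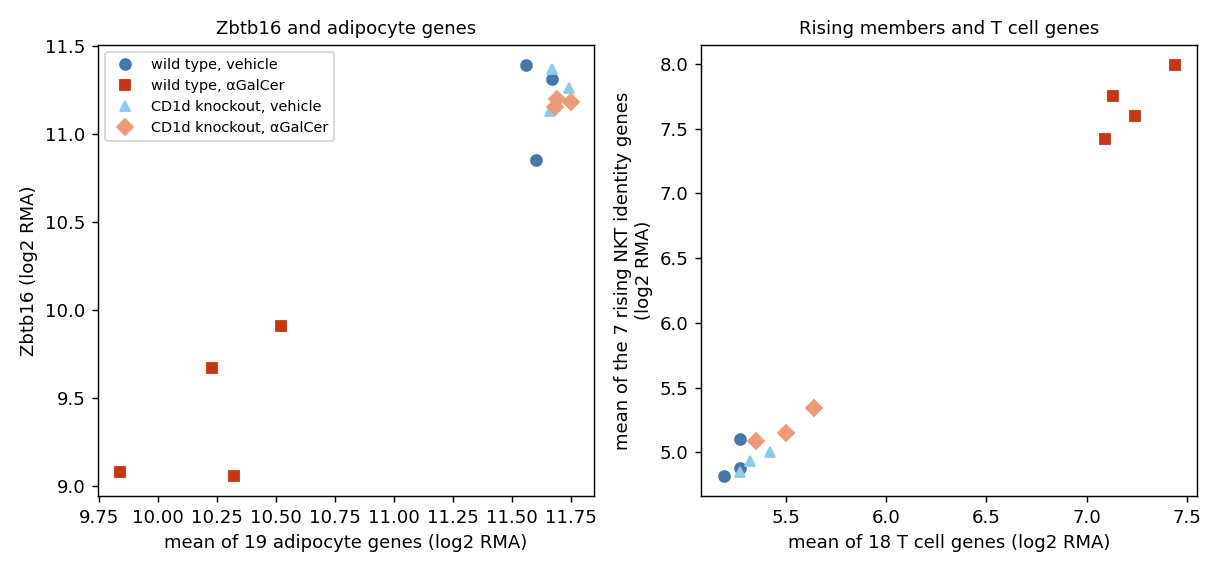
Left, Zbtb16 (vertical axis, log2 RMA) against the mean of 19 adipocyte genes (horizontal axis, log2 RMA), and right, the mean of the 7 rising NKT identity genes against the mean of 18 T cell genes, 1 point an array. In both panels the wild type αGalCer arrays form 1 cluster and the other 9 arrays another.

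Because glucocorticoids induce Zbtb16, 19 other genes of the glucocorticoid response were read beside it. In wild type fat after αGalCer 9 fell and 3 rose, with a median of -0.39. Ddit4, an inhibitor of growth signalling, fell by 1.65 ± 0.11, and Tsc22d3, which encodes the anti-inflammatory protein GILZ, fell by 1.48 ± 0.20. Cdkn1a, a cell cycle inhibitor, rose by 1.53 ± 0.20 and Zfp36, which destabilises cytokine messages, by 0.53 ± 0.13. None of the 19 was called in knockout fat, where 3 had an unadjusted p under 0.05 and the median was -0.08. Over the 13 arrays the genes whose values tracked Zbtb16 most closely were Mylip (r = 0.989), Tle1 (r = 0.988) and Ralgapa2 (r = 0.981). Each of them fell in wild type fat, by 1.18 to 1.40. Such correlations describe the gap between the wild type αGalCer arrays and the rest. Over the 9 arrays outside that group the closest genes were other ones, Accs (r = 0.971), H2ac21 (r = 0.936), Aurka (r = 0.933), Mgat5 (r = 0.908) and E2f2 (r = 0.907). The most opposed were Hapln2 (r = -0.968), Kpna7 (r = -0.956) and Slc26a7 (r = -0.952). These are the extremes among all genes over few arrays, where such values can arise by chance. Zbtb16 spanned only 10.85 to 11.39 there, with wild type vehicle replicate 1 the lowest. They are a description and name no partners of Zbtb16.

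Tbx21, the T-box factor that drives interferon gamma production, went the other way. Its wild type values were 5.25, 5.76 and 5.52 after vehicle and 8.51, 8.06, 8.01 and 8.09 after αGalCer. Knockout values were 5.51, 5.53 and 5.96 after vehicle and 6.03, 6.03 and 5.89 after αGalCer. Only the wild type αGalCer arrays stood apart, with replicate 1 above its 3 companions. The rise was 2.66 ± 0.16 on the log2 scale, 6.31-fold (adjusted p = 1.01e-07). In knockout fat the difference was 0.31, with an interval of -0.05 to 0.68. Among 21 other regulators of NKT development 13 rose in wild type and 2 fell. Eomes, a T-box factor of NK and memory T cells, rose by 3.52 ± 0.33 and Egr2, which acts upstream of PLZF in thymic NKT precursors, by 3.31 ± 0.26. Rora fell by 0.91 ± 0.17 and Tcf12 by 0.34 ± 0.12 (adjusted p = 0.0351). The call of Tcf12 was lost without wild type vehicle replicate 2 (0.14) or 3 (0.0739) or αGalCer replicate 1 (0.0887) or 2 (0.0729), as adjusted p. For the list as a whole the median change was 0.77 in wild type and 0.20 in knockout, where 0 were called and 6 had an unadjusted p under 0.05.

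Both cytokine receptor genes were called, in opposite directions. Il2rb encodes the chain that interleukins 2 and 15 share, and it read 6.28, 6.67 and 6.53 in wild type fat after vehicle. After αGalCer it read 10.64, 9.80, 10.29 and 10.28. In knockout fat it read 6.46, 6.23 and 6.34 after vehicle and 7.24, 6.73 and 6.19 after αGalCer. The wild type groups were far apart, and the knockout groups overlapped because αGalCer replicate 3 lay below every vehicle array. The rise in wild type was 3.76 ± 0.23, 13.5-fold (adjusted p = 1.07e-07), against 0.38 in knockout with an interval of -0.15 to 0.90. Of the ligands and partner chains, Il15 rose by 0.68 ± 0.17 in wild type (adjusted p = 0.0059). It differed by 0.26 ± 0.18 in knockout, and the difference of effects was not called (0.42 ± 0.25, adjusted p = 0.264). In wild type Il15ra changed by -0.16 ± 0.12, Il2 by 0.22 ± 0.10 and Il2ra by 0.44 ± 0.18, and none of these 3 was called. Il2ra was called without wild type vehicle replicate 2 (0.61, adjusted p = 0.0181) or αGalCer replicate 3 (0.53, adjusted p = 0.0352). With dim genes left out of the test it was called too (0.44, adjusted p = 0.0465).

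Il17rb, the receptor chain for interleukin 25 found on an NKT subset and on type 2 innate lymphoid cells, had the smallest change of the 9 genes in wild type fat. Wild type arrays read 6.32, 5.64 and 6.51 after vehicle and 5.21, 5.32, 5.45 and 5.50 after αGalCer. Knockout arrays read 7.31, 6.31 and 5.99 after vehicle and 5.99, 6.13 and 6.21 after αGalCer. The wild type groups were separate by a narrow margin, and knockout vehicle replicate 1, an array high in muscle genes, was the highest of all. The fall in wild type was 0.79 ± 0.27 (adjusted p = 0.0333). It lost its call when any of 5 single arrays was left out, namely wild type vehicle replicate 1 (adjusted p = 0.106) or 3 (0.146) or αGalCer replicate 1 (0.0725), 2 (0.0657) or 3 (0.0515). In knockout fat the difference was -0.43, with an interval of -1.06 to 0.20. The effects in the 2 genotypes differed by -0.36 (interval -1.22 to 0.50, adjusted p = 0.592), so a difference between genotypes was not shown for this gene. Its ligand gene Il25 changed by -0.05 ± 0.11 in wild type, which was not called, while the partner chain Il17ra rose by 1.24 ± 0.20 (adjusted p = 0.000191). Of 11 other genes of type 2 innate lymphoid cells 8 rose and 2 fell. The rises were led by Arg1, an arginine-consuming enzyme also made by macrophages (5.14 ± 0.44), and Klrg1, an inhibitory receptor also found on NK and T cells (3.26 ± 0.17). The falls were Rora and Hes1 (-0.67 ± 0.24, adjusted p = 0.0394), and Hes1 lost its call under 13 of 24 alternatives, with wild type vehicle replicate 3 left out for example (adjusted p = 0.134).

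The chemokine genes rose together with their counterparts. Cxcr6, the receptor that keeps NKT cells patrolling liver vessels, read 4.44, 4.92 and 4.63 in wild type after vehicle and 7.28, 7.69, 7.08 and 7.02 after αGalCer. All knockout arrays lay between 4.41 and 5.07, and their groups overlapped. Its rise in wild type was 2.60 ± 0.18 (adjusted p = 2.58e-07). Whether its low vehicle values were above background was not tested, so no fold is given. Cxcl16, the only known ligand of Cxcr6, rose by 1.66 ± 0.18 (adjusted p = 6.23e-06). In knockout fat Cxcr6 differed between injections by 0.25 (interval -0.17 to 0.68) and Cxcl16 by 0.24. Xcl1, a chemokine of activated lymphocytes, read 5.23, 5.26 and 4.93 in wild type after vehicle and 7.73, 6.62, 6.59 and 7.13 after αGalCer. Knockout arrays ranged from 5.00 to 5.56, below every wild type αGalCer array. Xcl1 rose 3.68-fold (1.88 ± 0.24, adjusted p = 3.05e-05), and Xcr1, its receptor on cross-presenting dendritic cells, rose by 1.86 ± 0.16 (adjusted p = 1.11e-06).

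Slamf6 had the largest rise of the 9 genes in wild type fat. This homophilic receptor of the SLAM family read 5.03, 4.91 and 4.91 after vehicle and 8.75, 9.14, 8.75 and 8.79 after αGalCer. In knockout fat it read 4.81, 4.81 and 4.95 after vehicle and 5.00, 5.17 and 5.13 after αGalCer. The wild type change was 3.91 ± 0.11, 15-fold (adjusted p = 3.31e-10). Whether its vehicle values were above background was not tested, so the fold is uncertain. The 2 knockout groups did not overlap either, but their difference was only 0.24, with an interval of -0.02 to 0.50 (adjusted p = 0.737). Sh2d1a, whose product SAP couples SLAM receptors to the kinase Fyn, read 3.33, 3.39 and 3.30 in wild type after vehicle and 5.41, 4.89, 5.40 and 5.67 after αGalCer. Knockout arrays read 3.34, 3.51 and 3.26 after vehicle and 3.52, 3.84 and 3.66 after αGalCer, again without overlap. Of the 9 genes, Slamf6 and Sh2d1a alone had separate knockout groups, and 13.8% of all genes did. Sh2d1a rose in wild type by 2.00 ± 0.15 (adjusted p = 4.08e-07), and in knockout differed by 0.31, with an interval of -0.04 to 0.65. Its vehicle values were close to those of the deleted Cd1d1 in knockout vehicle fat (3.45, 4.03 and 3.72). Whether Sh2d1a was above background there was not tested, so no fold is given.

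Other members of the SLAM pathway rose with them in wild type fat. Ly9 rose by 2.90 ± 0.26, Cd84 by 2.82 ± 0.31, Slamf1 by 2.09 ± 0.14, Slamf7 by 2.04 ± 0.19 and Cd244a by 1.79 ± 0.25, all of them SLAM receptors. Sh2d1b1, a second adaptor of the SAP kind, rose by 1.69 ± 0.31 and Fyn by 1.03 ± 0.10. In knockout fat Ly9 differed by 0.98 ± 0.28, Cd84 by 0.73, Slamf7 by 0.59 and Fyn by 0.38, and none was called (adjusted p = 0.72 for Ly9). Of the 18 measured ligands, partners and related genes, 11 rose in wild type and 1, Cd1d1, fell by 1.06 ± 0.24 (adjusted p = 0.00288). The median of the 18 was 1.14. In knockout 0 were called, 6 had an unadjusted p under 0.05 and the median was 0.20. Clec2d, which encodes a ligand of NK receptors, changed by 0.19 ± 0.13 in wild type. Cul3, the ubiquitin ligase scaffold that binds PLZF, changed by -0.30 ± 0.20, and neither was called.

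**Figure D3:**
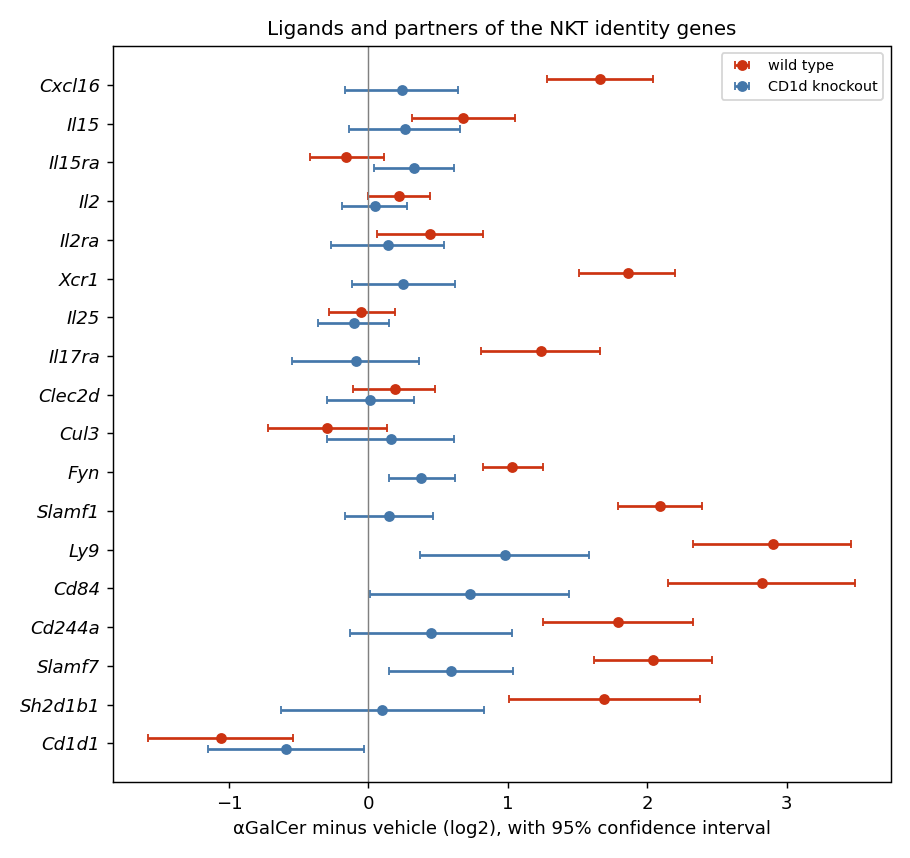
αGalCer minus vehicle (horizontal axis, log2) with its 95% confidence interval, in wild type and in knockout fat. Rows (vertical axis) are 18 ligands, partners and related genes of the NKT identity genes. The SLAM receptors Ly9 (2.90) and Cd84 (2.82) lie farthest to the right in wild type.

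Klrb1c, which encodes the receptor NK1.1 of NK and NKT cells, was the most variable of the 9 in wild type fat after αGalCer. It read 4.16, 4.81 and 4.36 after vehicle and 7.63, 5.77, 7.08 and 7.30 after αGalCer. Knockout arrays read 4.33, 4.34 and 4.12 after vehicle and 5.00, 4.38 and 4.30 after αGalCer. The wild type αGalCer arrays spanned 1.87, with replicate 2 well below the others and still above every array of the remaining groups. The rise was 2.50 ± 0.35 (adjusted p = 7.30e-05), against 0.30 in knockout with an interval of -0.52 to 1.11. Whether the low vehicle values were above background was not tested, so no fold is given. A further probe set is annotated to both Klrb1c and its paralogue Klrb1a and was not used, and whether the chosen probe set tells such paralogues apart was not tested. The genes that tracked Klrb1c most closely over the 13 arrays were the lymphocyte genes Klrb1b (r = 0.987), Klra6 (r = 0.987) and Cd7 (r = 0.986).

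Promoter sequences from RefSeq (build GRCm38.p6) were available for 6 of the 9 genes, but not for Zbtb16, Il2rb or Sh2d1a. They cover the 250 bases before the annotated start, with the T-box core GGTGTG or its reverse complement CACACC in capitals, because the T-box genes Tbx21 and Eomes rose beside them. Slamf6 is shown as the gene with the largest rise, Xcl1 as the rising gene with core matches, and Il17rb as the gene that fell and also has one.
Slamf6, chr1:171917212-171917461, plus strand: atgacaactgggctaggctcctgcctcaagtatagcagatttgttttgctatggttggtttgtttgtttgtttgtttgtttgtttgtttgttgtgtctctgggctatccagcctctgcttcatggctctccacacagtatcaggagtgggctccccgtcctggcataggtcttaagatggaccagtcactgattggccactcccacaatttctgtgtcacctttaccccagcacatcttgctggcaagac
Xcl1, chr1:164935523-164935772, minus strand: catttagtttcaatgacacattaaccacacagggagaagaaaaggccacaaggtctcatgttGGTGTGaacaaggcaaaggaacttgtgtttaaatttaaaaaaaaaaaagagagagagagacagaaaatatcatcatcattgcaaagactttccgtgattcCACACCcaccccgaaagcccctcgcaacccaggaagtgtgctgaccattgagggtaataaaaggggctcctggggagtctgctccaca
Il17rb, chr14:30008897-30009146, minus strand: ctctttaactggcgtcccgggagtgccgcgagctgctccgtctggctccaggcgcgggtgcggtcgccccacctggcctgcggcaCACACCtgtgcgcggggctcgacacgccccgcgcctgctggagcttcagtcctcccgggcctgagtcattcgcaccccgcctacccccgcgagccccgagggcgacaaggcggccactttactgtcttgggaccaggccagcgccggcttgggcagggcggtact

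The core was found in 2 of the 6 promoters, and 16.3% of the 32851 mouse promoters searched over the same length held it. In Xcl1 the matches lay 188 to 183 and 88 to 83 bases before the start, and in Il17rb the match lay 165 to 160 bases before it. None of the 6 held the longer T-box motif AGGTGTGA, found in 1.12% of promoters, which contains the core. None held the STAT motif TTCNNNGAA (7.02%), the palindromic glucocorticoid receptor motif (0.387%) or the early growth response motif GCGTGGGCG (0.536%), searched on both strands. The Zbtb16 promoter was not available and was not searched for any motif. The share of G and C was 44% in Xcl1, 48.4% in Slamf6 and 72% in Il17rb. A match or its lack describes only the letters in this window.

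The difference between the αGalCer effects in wild type and knockout was then tested directly. It was positive and called for 7 of the 9 NKT identity genes, negative and called for Zbtb16, and not called for Il17rb. Over all genes 13.9% were called higher and 14.3% lower. Slamf6 had the largest difference, 3.67 ± 0.16 (adjusted p = 6.93e-08), followed by Il2rb at 3.38 ± 0.33. Cxcr6 (2.35 ± 0.27) and Tbx21 (2.34 ± 0.23) came next, then Klrb1c (2.20 ± 0.52, adjusted p = 0.00585), Xcl1 (1.80 ± 0.35) and Sh2d1a (1.69 ± 0.22). The call of Klrb1c was lost without the 3 arrays high in muscle genes (1.93 ± 0.75, adjusted p = 0.103). That leaves 1 knockout vehicle array, which is assumed to vary like the other groups. The 7 rising genes had a median change of 2.60 in wild type and 0.30 in knockout, where all 7 estimates were above 0 and none exceeded 0.38. Within the knockout αGalCer group, replicate 1 had the highest mean of the 7 genes (5.34), and also the highest mean of T cell genes (5.64), of NK cell genes (5.93) and of macrophage genes (9.47).

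**Figure D4:**
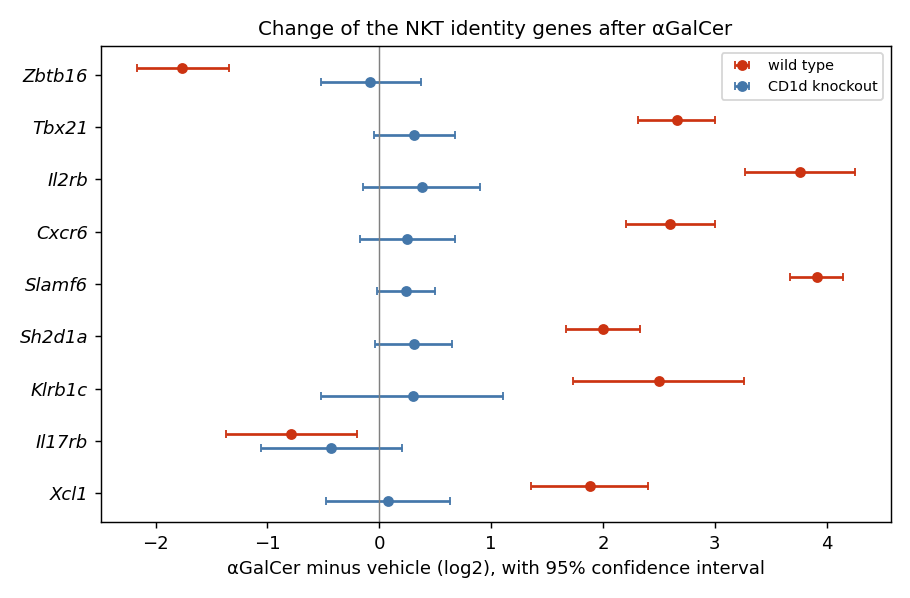
αGalCer minus vehicle (horizontal axis, log2) with its 95% confidence interval for each NKT identity gene (vertical axis), in wild type and in knockout fat. In knockout every interval includes 0, and the wild type and knockout intervals overlap for Il17rb alone.

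The genotypes after vehicle set fat of mice with NKT cells against fat of mice without them. None of the 9 was called and none had an unadjusted p under 0.05, while 0.112% of all genes, 21 in number, were called and 1258 had such a p. The groups overlapped for all 9. Sh2d1a was dim in both groups (3.26 to 3.51). Klrb1c (4.12 to 4.81), Cxcr6 (4.41 to 5.02) and Slamf6 (4.81 to 5.03) were also low. Whether these genes were above background was not tested, so the lack of a call does not show equal expression. Estimates for the 9 genes ran from -0.18 for Klrb1c (interval -1.0 to 0.64) to 0.38 for Il17rb (interval -0.25 to 1.01). For Tbx21 the difference was 0.16 (-0.21 to 0.53), for Cxcr6 0.08 (-0.34 to 0.50) and for Slamf6 -0.09 (-0.35 to 0.17). After αGalCer, 7 genes were lower in knockout than in wild type, and Zbtb16 (1.75 ± 0.19, 3.36-fold) and Il17rb (0.74 ± 0.27, adjusted p = 0.0442) were higher. The Il17rb call was lost under 11 of 24 alternatives, among them the removal of any 1 array of either group compared, with adjusted p up to 0.124. Here 21.9% of all genes were called higher and 19.2% lower. All 9 genes had groups without overlap, as had 50.4% of all genes. This comparison shares the wild type αGalCer arrays with the first and is no separate evidence of it.

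Markers of the lymphocytes that could carry the 7 rising genes rose with them. All 18 measured T cell genes rose in wild type fat after αGalCer, with a median of 1.99, and their mean level went from 5.19 to 5.27 after vehicle to 7.09 to 7.44. Cd3g, a chain of the T cell receptor complex, rose by 3.59 ± 0.19 and Sh2d2a, a T cell adaptor, by 3.57 ± 0.24. All 17 NK cell genes rose too, with a median of 2.64. Their mean was 4.95 to 5.49 after vehicle and 7.35 to 8.18 after αGalCer, and Gzma (4.57 ± 0.18) and Prf1 (4.10 ± 0.24), which encode proteins of cytotoxic granules, rose most. In knockout fat 0 genes of either list were called, 3 of each had an unadjusted p under 0.05, and the medians were 0.12 and 0.32. The part of T and NK cell content in the rise of the 7 genes was not tested. NKT cells share most of these markers, and none of the 9 genes separates the 3 kinds of lymphocyte.

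Of 28 other effector genes of NKT cells, 26 rose in wild type fat and 0 fell, with a median of 2.00 against 0.23 in knockout. Gzmb, which encodes a cytotoxic granule protease, rose by 5.82 ± 0.14 and Ifng, which encodes interferon gamma, by 3.17 ± 0.19. Il4, the cytokine gene named with STAT6 in the study's title, rose by 1.66 ± 0.15, whereas Il17a changed by 0.03 ± 0.14 and was not called. Of 16 macrophage genes 14 rose, with a median of 1.69, led by the Fc receptor gene Fcgr1 (3.6 ± 0.23) and the scavenger receptor gene Msr1 (3.35 ± 0.36). Of 12 B cell genes 4 rose, with a median of 0.02, led by Cd22 (1.67 ± 0.15) and Sdc1 (1.25 ± 0.18). Each count stands beside the 19.8% of all genes called higher. The lists share members, so their counts are not independent.

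**Figure D5:**
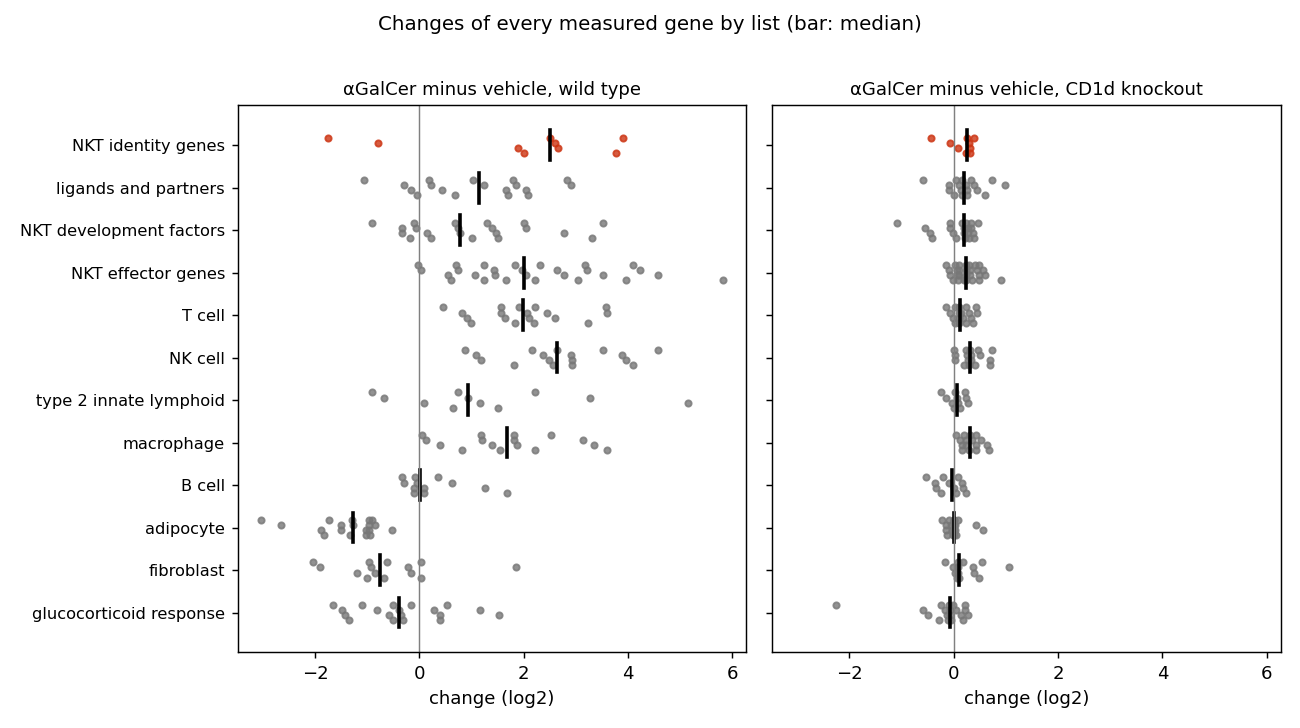
αGalCer minus vehicle (horizontal axis, log2) of every measured gene in each list (rows), with the median as a bar, in wild type (left) and knockout fat (right). The NKT identity genes have a median of 2.50 in wild type and 0.25 in knockout, and adipocyte genes have -1.28 and 0.00.

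The 7 rising genes also tracked each other over the 13 arrays, with r from 0.89 to 0.98, and Zbtb16 ran against them, with r from -0.97 to -0.86. Both ranges describe 2 clusters of arrays. Within the wild type αGalCer group no order held for all genes. Replicate 1 was highest for Tbx21, Il2rb, Klrb1c and Xcl1 and lowest for Zbtb16 and Il17rb. Replicate 2 was lowest for Il2rb, Sh2d1a and Klrb1c and highest for Cxcr6 and Slamf6. Over the 13 arrays the 3 genes closest to Tbx21 were Parp12 (r = 0.997), Ubash3a (r = 0.995) and Scimp (r = 0.994). For Il2rb they were Itgax, the cytotoxic granule gene Gzma and Slfn1 (r = 0.996 each). Sh2d1a ran closest to Klra4 (r = 0.987), Tigit (r = 0.987) and Ccr9 (r = 0.986), which encode lymphocyte receptors. Xcl1 ran closest to Tnfrsf9 (r = 0.988), Rab37 (r = 0.98) and Ccr8 (r = 0.98). Slamf6 ran closest to Pdcd1lg2 (r = 0.996), which encodes a ligand of the checkpoint receptor PD-1, Tnfrsf26 (r = 0.995) and Ubash3b (r = 0.995). Cxcr6 ran closest to Iqgap1 (r = 0.995), Ptpn7 (r = 0.993) and Slc25a43 (r = 0.993), and Il17rb to Rogdi (r = 0.968), Pick1 (r = 0.963) and Pllp (r = 0.956).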

How the data were processed

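RNA from 13 fat samples in 4 groups was measured on Affymetrix gene arrays, 1 array a sample. The authors deposited log2 expression values per probe set, made with RMA per the submitters' processing notes. No RMA version, chip description file or genome build is named in the sources used here. RMA understates changes of dim probe sets, and no detection calls were used. Array medians ran from 5.68 to 5.83. The labels call the arrays replicates without saying that each came from its own animal, so p-values measure the spread between samples, which may be partly technical. Precision is limited by the small number of arrays.

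Of 35556 probe sets, 21218 had 1 gene symbol in the platform annotation, 1881 several and 12457 none. Symbols were updated through Entrez identifiers (21185), accessions (3) or kept (30), with the RefSeq gene table of GRCm38.p6. The probe set with the highest mean stood for each of 18818 genes. In limma 3.58.1 (R 4.3.3), all arrays entered 1 model of group means, followed by eBayes with an intensity trend. Two-sided p-values received the Benjamini-Hochberg adjustment over the 18818 genes, and genes were called at an adjusted p under 0.05. The ± after a change is its SE. The model was also tested on simulated data. Groups overlap when the ranges of their arrays do.

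The 9 genes and the gene lists were chosen with earlier results of these data known, and the 9 were left out of the other lists. The text names all 9, every measured partner, from each other list the 2 largest rises and falls among genes called in wild type, and for each of the 9 the 3 genes with the highest correlation over the 13 arrays (for Zbtb16 also the 5 highest and 3 lowest over the 9 arrays outside wild type αGalCer). Ifng, Il4 and Il17a were added after their values were seen. Motifs were searched as letters on both strands. Alternatives covered the variance model, array weights, normalisation, dim genes (mean under 5 left out), probe set choice, the arrays in the model, the replicate number and each array left out in turn.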

Additional observations from a re-analysis of the deposited data

Results flagged for a closer look

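For 8 of the 9 NKT identity genes the αGalCer effect differed between wild type and knockout in the test of the difference itself. That test called 13.9% of all genes higher and 14.3% lower. The differences were -1.68 on the log2 scale for Zbtb16, 2.34 for Tbx21, 3.38 for Il2rb and 2.35 for Cxcr6. They were 3.67 for Slamf6, 1.69 for Sh2d1a, 2.20 for Klrb1c and 1.80 for Xcl1. Among the 4 wild type αGalCer arrays, a single array stood far from its companions for 5 of the 54 genes looked at, 2 of them among the 9 members. Chance gives such a gap in about 1 of 20 groups. Tbx21 read 8.51 in replicate 1 and 8.01 to 8.09 in the others, and Slamf6 read 9.14 in replicate 2 against 8.75 to 8.79. Cul3, which encodes the scaffold bound by PLZF, read 9.64 in replicate 1 against 10.32 to 10.36. Sh2d1b1 read 5.83 in replicate 2 against 6.79 to 6.97, and Pck1 read 9.54 in replicate 3 against 8.06 to 8.26.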

How the results depend on the processing

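Of the 26 called results of the 9 genes, 23 kept their call and direction under each of up to 24 alternatives run for them. The exceptions were Il17rb in wild type after αGalCer, which lost its call without each of 5 arrays, Il17rb in knockout against wild type after αGalCer, which lost it under 11 alternatives with adjusted p from 0.0513 to 0.124, and the difference of effects for Klrb1c, which was 1.93 (adjusted p = 0.103) without the 3 arrays high in muscle genes. Without these 3 arrays, which leaves 1 knockout vehicle array and takes the spread from the other groups, some uncalled values changed sign. αGalCer in knockout then gave 0.04 for Zbtb16, -0.06 for Cxcr6, 0.07 for Il17rb and -0.05 for Xcl1, and knockout against wild type after vehicle gave -0.05 for Zbtb16, 0.00 for Slamf6, -0.08 for Sh2d1a and -0.17 for Il17rb. Array weights turned Zbtb16 to -0.03 in the vehicle comparison and Xcl1 to -0.03 for αGalCer in knockout. With each array left out in turn, the vehicle comparison ran from -0.09 to 0.17 for Zbtb16, -0.06 to 0.24 for Cxcr6, -0.05 to 0.08 for Sh2d1a, -0.32 to 0.00 for Klrb1c, -0.01 to 0.66 for Il17rb and -0.01 to 0.16 for Xcl1. Xcl1 for αGalCer in knockout ran from -0.05 to 0.23, and Il25 in wild type from -0.13 to 0.00. The cause was not tested.

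The number of genes called for αGalCer in knockout was 0, but 322 with array weights (175 higher and 147 lower, none of the 9 among them) and 2 without the muscle-high arrays. In knockout against wild type after vehicle it was 21, but 169 with array weights, 4 with only the compared groups in the model, 1 without the muscle-high arrays, and 11 to 35 with 1 array left out. Deviations from the group means had r over 0.1 in 5 of 18 same-numbered pairs and in 9 of 45 pairs with other numbers. The median r was 0.02 for both kinds of pair, and the highest was 0.48 and 0.46. With so few arrays a group, these values cannot show whether the numbers pair the arrays. With the replicate number as a block, 9 of the 9 genes were called for αGalCer in wild type, 0 in knockout and 8 for the difference. For knockout against wild type 0 were called after vehicle and 8 after αGalCer, where Il17rb was not called (0.78, adjusted p = 0.0618). Of all 18818 genes, 7766, 0, 5461, 17 and 7637 were called in these 5 comparisons, in the same order. The difference of effects needs all 4 groups and was not run in the model of the compared groups alone. Sh2d1a is not tested where dim genes are left out. That cut used the mean over all arrays, which the wild type αGalCer arrays raised. In the other arrays Klrb1c read 4.12 to 5.00, Cxcr6 4.41 to 5.07 and Slamf6 4.81 to 5.17. For these genes, keeping a call under that alternative is no support.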
